A study of Arabidopsis thaliana with 6 samples.

Results

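The genes described here were the Arabidopsis thaliana class I KNOX genes STM, KNAT1, KNAT2 and KNAT6, the related KNATM, and AS1 and AS2, which repress KNOX genes. These 7 genes were taken by locus identifier from the 38194 loci of the count tables, and all 7 passed the filter on low counts. RNA was sequenced from seedlings that were 12 days old and carried 35S:GR-TCP5. Every plant carried this construct, in which the transcription factor TCP5 is joined to the glucocorticoid receptor. The 35S promoter is active in nearly all tissues, and dexamethasone (DEX) lets the fusion protein enter the nucleus. The DEX group was treated for 4 h with a solution labelled as 10 mM dexamethasone with 0.1% ethanol and 0.015% silwet, and the MOCK group with the same solution without dexamethasone. The molar dose is printed as labelled. Each group held 3 libraries, replicates 1 and 2 from a first sequencing run and replicate 3 from a second. The labels speak of a single line and whole seedlings, the libraries analysed here include no plants without the construct, and the labels do not say whether replicates were separate cultures. Responses to dexamethasone itself and to TCP5 therefore cannot be told apart. The reported p-values rest only on variation among these 6 libraries, after fitting the run difference and with variance estimates that draw on all genes.

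KNOX proteins are homeodomain transcription factors. Those of class I keep cells of the shoot apical meristem undifferentiated, in part by raising cytokinin and lowering gibberellin, and their genes are switched off where a leaf begins to form. AS1, a MYB-domain protein, and AS2, a LOB-domain protein, bind together to the KNAT1 and KNAT2 promoters and keep them silent in the leaf, and misexpression of class I KNOX genes gives lobed or serrated leaves. CIN-class TCP proteins, the subfamily of TCP5, act in the same organ to limit KNOX activity and margin outgrowth. The series title names KNOX genes among those regulated by TCP5, and the comparison asked which of the 7 genes differed after DEX.

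The sequence before each gene was read from the RefSeq TAIR10.1 genome and searched on both strands for GTGGNCCC, a CIN-class TCP consensus, for GGNCCC, the core of both TCP classes, and for GGACCA, a letter run found in sites of the related TCP4. The first motif contains the second. None of the 7 genes held any of them in the 250 bases before its annotated start, against 0.670%, 7.35% and 5.90% of 27443 protein-coding genes. Within 1000 bases, GGACCA occurred once before KNAT1 and once before AS1 (21.9% of all genes held it), GGNCCC once before AS1 (21.1%), and GTGGNCCC before none of the 7 (1.99%). The KNAT1 match lay 416 to 411 bases before the start, and the matches of AS1 overlapped each other 914 to 908 bases before it. The stretches around them are shown with the matches in capitals, and the 250 bases before AS2 are shown beside them as the stretch of a gene with no match. Of the genes shown, KNAT1 and AS2 passed the test described below, and AS1 did not. All are written 5′ to 3′ on the gene's own strand, and a match is a description of letters, not evidence of binding.
KNAT1, chr4:5151460-5151659, minus strand: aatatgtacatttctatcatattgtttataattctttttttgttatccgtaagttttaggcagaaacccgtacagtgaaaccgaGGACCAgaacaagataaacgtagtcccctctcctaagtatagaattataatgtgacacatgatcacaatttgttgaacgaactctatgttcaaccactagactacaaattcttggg
AS1, chr2:15784341-15784440, minus strand: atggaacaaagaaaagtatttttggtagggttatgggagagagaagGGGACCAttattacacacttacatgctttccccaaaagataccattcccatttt
AS2, chr1:24397893-24398142, plus strand: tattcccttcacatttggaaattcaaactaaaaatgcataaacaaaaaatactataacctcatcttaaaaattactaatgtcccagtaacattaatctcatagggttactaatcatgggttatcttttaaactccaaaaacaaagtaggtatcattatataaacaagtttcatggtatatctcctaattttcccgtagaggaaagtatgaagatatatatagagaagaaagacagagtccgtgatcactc

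After DEX, transcripts of KNAT1 and AS2 fell, and those of the other 5 genes did not pass the test. Over all 21934 genes tested, 1024 passed, which is 4.67%, and 786 of them were lower with DEX, which is 3.58%. Of the 7 genes, 2 passed and both were lower. None rose, beside 1.09% of all genes. The 5 KNOX genes had a median of −0.31 on the log2 scale and the AS pair one of −0.67, beside 0.00 over all genes tested. DESeq2 called the same number of the 7, both lower, beside 9.41% of all genes in either direction and 6.7% lower, and the fit with the replicate number as a block called 1, beside 2.6%. Levels are given as CPM, exon counts scaled to library size with TMM factors, and fold changes as DEX over MOCK with their standard error (SE).

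KNAT1 (AT4G08150, also BREVIPEDICELLUS) acts in the meristem and shapes the stem and pedicels. It was at 14.8, 13.8 and 9.63 CPM in MOCK replicates 1, 2 and 3 and at 8.81, 7.02 and 6.81 CPM in the DEX replicates. Every DEX library lay below every MOCK library, although the second-run MOCK library exceeded the highest DEX library by less than 1 CPM. The log2 fold change was −0.75 ± 0.14, a fall of 40.3% (edgeR quasi-likelihood adjusted p = 0.0231). Blocking on the replicate gave an adjusted p of 0.0383. The call was lost without DEX replicate 2 (adjusted p = 0.0807), MOCK replicate 1 (0.0908) or MOCK replicate 2 (0.106), and in a fit without a run term (0.999), while the log2 fold change stayed between −0.86 and −0.61 under all 17 alternatives.

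STM (AT1G62360), which establishes and maintains the shoot meristem, was the one gene of the 7 with a positive fold change. Its levels were 6.94, 8.92 and 4.45 CPM in the MOCK replicates and 8.97, 8.95 and 4.74 CPM in the DEX replicates. Levels in the second run were lower in both groups, and the groups overlapped. The log2 fold change of 0.15 ± 0.14 did not pass (adjusted p = 0.626).

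KNAT2 (AT1G70510) and KNAT6 (AT1G23380) are close paralogs, and KNAT6 helps STM maintain the meristem and organ boundaries. KNAT2 was at 2.02, 1.98 and 1.51 CPM in the MOCK replicates and 1.20, 1.76 and 1.48 CPM in the DEX replicates. The first-run DEX libraries lay below their MOCK libraries, and the pair of the second run was nearly level. Its log2 fold change was −0.31 ± 0.25 (adjusted p = 0.577). KNAT6 was at 5.27, 4.79 and 4.57 CPM with MOCK and 4.55, 4.56 and 4.00 CPM with DEX. Its groups did not overlap, by a margin of under 0.05 CPM, and its log2 fold change was −0.16 ± 0.14 (adjusted p = 0.613). Non-overlap of this kind, with every DEX library lower, was found for 4.65% of all genes tested and for 3 of the 7 genes, KNAT1, KNAT6 and AS2. The reverse, every DEX library higher, was found for 3.53% of all genes and none of the 7.

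Reads of the KNAT2 and KNAT6 paralogs could in part be shared. Their coding sequences were identical at 78.8% of 930 aligned bases, against 59.4% to 65.5% for the other pairs of KNOX genes. The longest identical coding run was 41 bases, which is shown because a read inside it cannot be placed in either gene alone, whereas no other pair shared more than 20 bases. It codes for part of the homeodomain and lies at chr1:26582032-26582072 on the plus strand in KNAT2 and at chr1:8297575-8297615 on the minus strand in KNAT6.
KNAT2 and KNAT6: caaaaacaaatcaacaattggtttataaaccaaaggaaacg

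KNATM (AT1G14760) codes for a KNOX-related protein without a homeodomain, which binds BEL-like proteins. It was the lowest of the 7, with 37, 26 and 9 exon counts in the MOCK replicates and 24, 18 and 4 in the DEX replicates. These correspond to 0.51, 0.34 and 0.29 CPM and to 0.41, 0.27 and 0.12 CPM, and the groups overlapped. Its log2 fold change of −0.53 ± 0.50 did not pass (adjusted p = 0.640), and a difference was not detectable at this depth. KNATM shares 28 exonic bases with AT1G14755 on the other strand, which had 0 exon counts in all libraries.

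AS2 (AT1G65620), which is expressed on the upper side of the leaf and acts with AS1, had the largest fold change of the 7 genes over all libraries, but not in the first run alone (−0.81, against −0.85 for KNAT1) or without either second-run library (−0.80 against −0.84 without DEX replicate 3, and −0.81 against −0.86 without MOCK replicate 3). It was at 3.29, 3.56 and 3.74 CPM in the MOCK replicates and 2.16, 1.74 and 1.36 CPM in the DEX replicates. The groups were well apart, and the MOCK libraries lay within a narrow band across both runs. The log2 fold change was −1.01 ± 0.22, a fall of 50.2% (adjusted p = 0.0419). The call rests on few libraries. The adjusted p was 0.0837 with the replicate block, 0.119 in the first run alone, 0.999 without a run term, and 0.136, 0.132, 0.0949, 0.154 and 0.138 without DEX replicate 2 or 3 or MOCK replicate 1, 2 or 3. Without DEX replicate 1 it was 0.0347, and the log2 fold change lay between −1.15 and −0.80 under all 17 alternatives.

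AS1 (AT2G37630) was the most abundant of the 7 genes. It was at 37.4, 33.1 and 28.1 CPM in the MOCK replicates and 29.1, 26.2 and 23.3 CPM in the DEX replicates. DEX was below MOCK within each run, but the second-run MOCK library fell under DEX replicate 1. Its log2 fold change of −0.32 ± 0.09 did not pass (adjusted p = 0.101, and 0.0537 with DESeq2). The AS1 exons share 330 bases, 17.2% of their length, with the exons of the actin gene ACT1 on the other strand, and the library kit does not mark strand. ACT1 was at 26.6, 32.4 and 27.4 CPM with MOCK and 34.1, 30.8 and 38.8 CPM with DEX, and its log2 fold change was 0.26 ± 0.12 (adjusted p = 0.297). Its part in the AS1 counts was not tested.

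**Figure D1:**
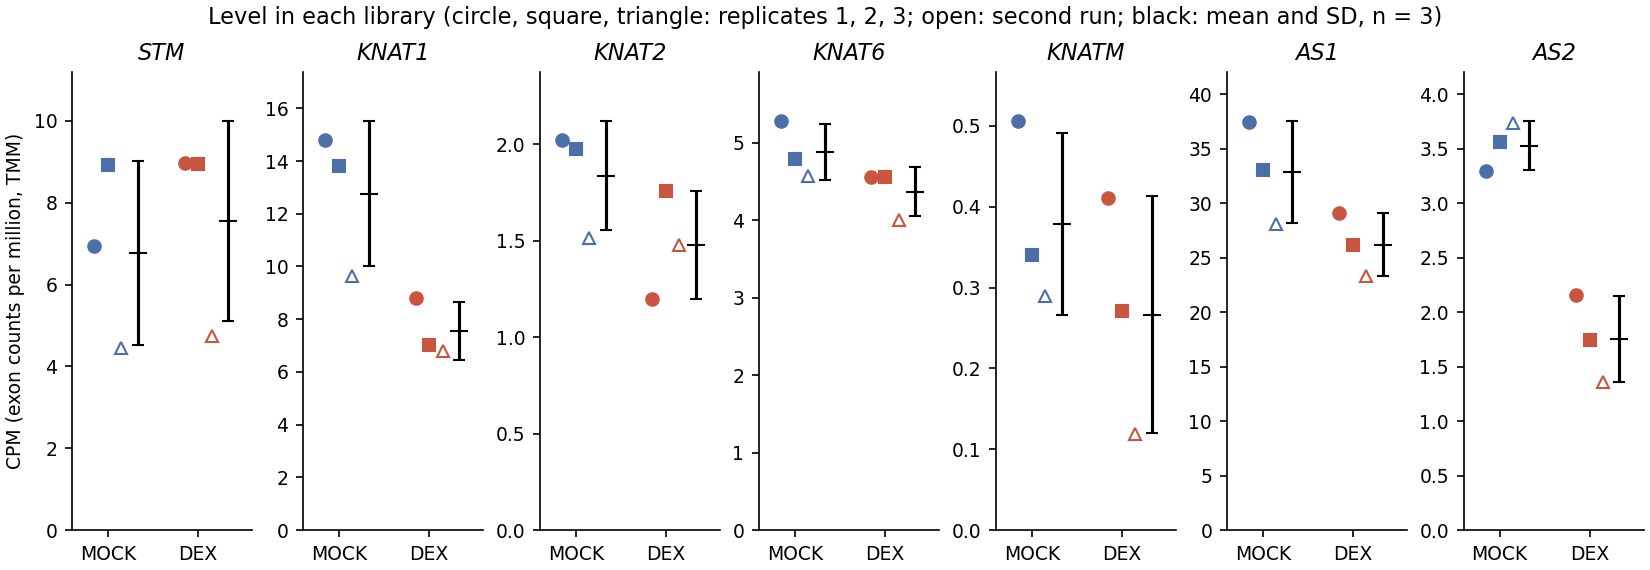
Level of each gene in CPM (exon counts scaled to library size, linear axis from 0) in the 6 libraries, with circles, squares and triangles for replicates 1, 2 and 3, open symbols for the second run and black bars for the mean and SD of 3 libraries. KNAT1 spans 9.63 to 14.8 CPM with MOCK and 6.81 to 8.81 CPM with DEX, AS2 spans 3.29 to 3.74 and 1.36 to 2.16 CPM, and STM overlaps between groups.

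Both runs were then set side by side, since each sequencing run held both treatments. DEX lay below MOCK for every library within both runs in 5 of the 7 genes (AS1, AS2, KNAT1, KNAT2 and KNAT6), a pattern found in 17.8% of all genes tested, and above MOCK in STM (14.7%). For KNAT1 the log2 ratio was −0.86 in the first run and −0.50 in the second, and for AS2 it was −0.81 and −1.43. Thus the fall of KNAT1 was the larger one in the first run and that of AS2 in the second, with 1 library a group there. The test of the difference between runs gave log2 differences of 0.36 ± 0.27 for KNAT1 (unadjusted p = 0.235) and −0.64 ± 0.41 for AS2 (unadjusted p = 0.167). No gene of the 7, and 0 of 21934 in all, passed that edgeR test after adjustment, and 0 of the 7 had an unadjusted p under 0.05, beside 6.55% of all genes (1436). For AS1 the ratios were −0.35 and −0.27, for KNAT6 −0.14 and −0.19, for KNAT2 −0.45 and −0.03, for KNATM −0.29 and −1.08 and for STM 0.19 and 0.09.

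**Figure D2:**
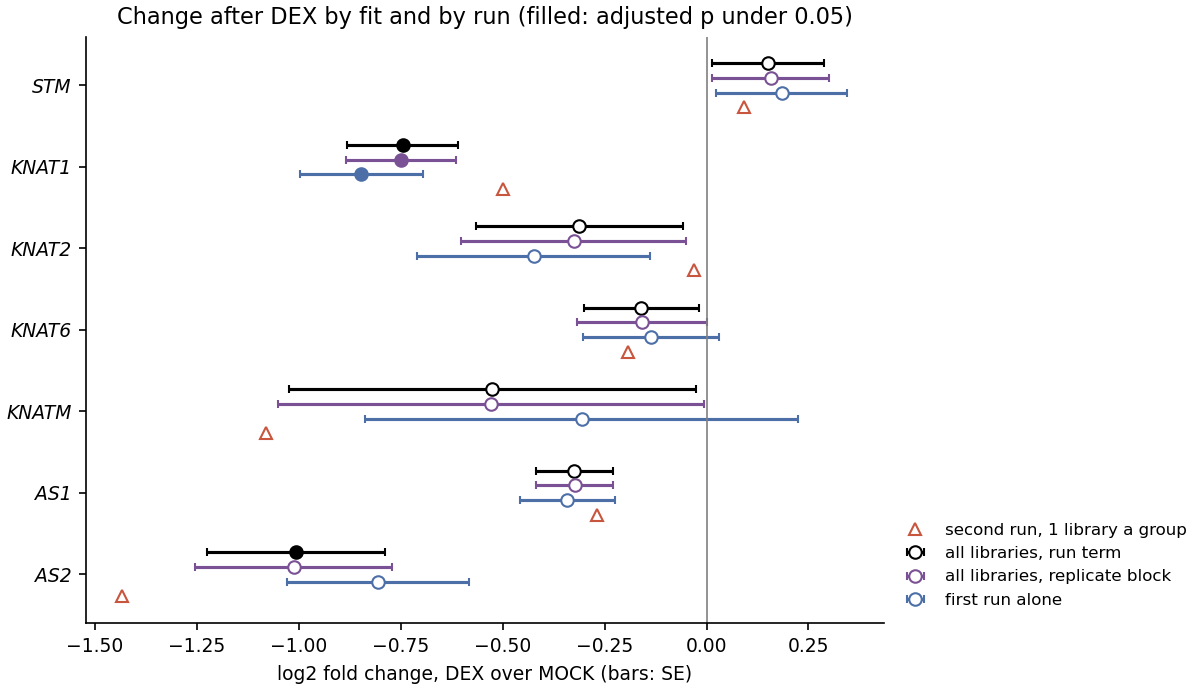
Log2 fold change of each gene, DEX over MOCK, with SE bars for the fit of all libraries with a run term (black), with a replicate block (purple) and for the first run alone (blue), and the ratio of the single second-run libraries (triangles); filled circles have an adjusted p under 0.05. KNAT1 is filled in all 3 fits, AS2 only in the fit with the run term, and the second-run ratios of KNAT1 and AS2 lie on opposite sides of their first-run values, nearer to 0 for KNAT1 and farther for AS2.

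Intron counts were examined as another readout of the same genes, since intron reads come in part from unspliced RNA. Of the 7 genes, 5 had enough intron counts to be tested, and 0 passed at an adjusted p under 0.05, beside 122 of 12989 genes or 0.939%, and 80 or 0.616% lower with DEX (edgeR; 2 of the 5 had an unadjusted p under 0.05, beside 9.64% of all genes). KNAT1 had 67, 66 and 13 intron counts in the MOCK replicates and 23, 25 and 4 in the DEX replicates. Every DEX library was lower on the scaled level, as for 4.17% of genes tested. Its intron log2 fold change was −1.30 ± 0.35 (adjusted p = 0.105), against −0.75 ± 0.14 for exons.

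KNAT2, which has an intron of 4162 bases, had the highest intron share of the 7 genes in 4 of the 6 libraries, the exceptions being DEX replicate 2 and MOCK replicate 3, where KNAT6 was higher. It had 75 and 85 intron counts in the first-run MOCK libraries and 16 and 11 in the DEX libraries of that run, but 6 with MOCK and 12 with DEX in the second run. Introns held 33.6% (exact 95% binomial interval 27.5% to 40.2%) and 36.0% (29.9% to 42.5%) of its counts in the first-run MOCK libraries. The first-run DEX libraries were at 18.6% (11.02% to 28.5%) and 8.59% (4.37% to 14.9%). With each count taken as independent, only the intervals of the 2 libraries of replicate 1 overlapped between the groups. In the second run the shares were 11.3% (4.27% to 23.0%) with MOCK and 19.4% (10.4% to 31.4%) with DEX. The intron log2 fold change over all libraries was −1.58 ± 0.48 (adjusted p = 0.180). It was −2.28 ± 0.38 without DEX replicate 3 (adjusted p = 0.0174) and −2.28 ± 0.38 without MOCK replicate 3 (0.0168), where the remaining second-run library no longer informs the contrast. Without DEX replicate 1 or 2 or MOCK replicate 1 or 2 it was −1.49, −1.12, −1.41 and −1.31, and none of these passed (adjusted p = 0.427, 0.582, 0.599 and 0.640).

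The intron fold changes of STM (−0.55 ± 0.42), KNAT6 (−0.42 ± 0.40) and AS1 (−0.07 ± 0.36) did not pass. KNAT6 had between 7 and 67 intron counts, and its DEX replicate 2 had an intron share of 18.1%, above the 7.96% and 4.93% of the other DEX libraries. Without that library the KNAT6 intron fold change was −1.20 ± 0.42 on the log2 scale (edgeR adjusted p = 0.376). With any other library left out it lay between −0.70 (without MOCK replicate 2) and −0.10 (without DEX replicate 3). AS2 had at most 6 and KNATM at most 4 intron counts in any library, too few to test. The binomial intervals cover counting error only and take each count as independent. They are too narrow if both mates of a read pair were counted, which was not tested.

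**Figure D3:**
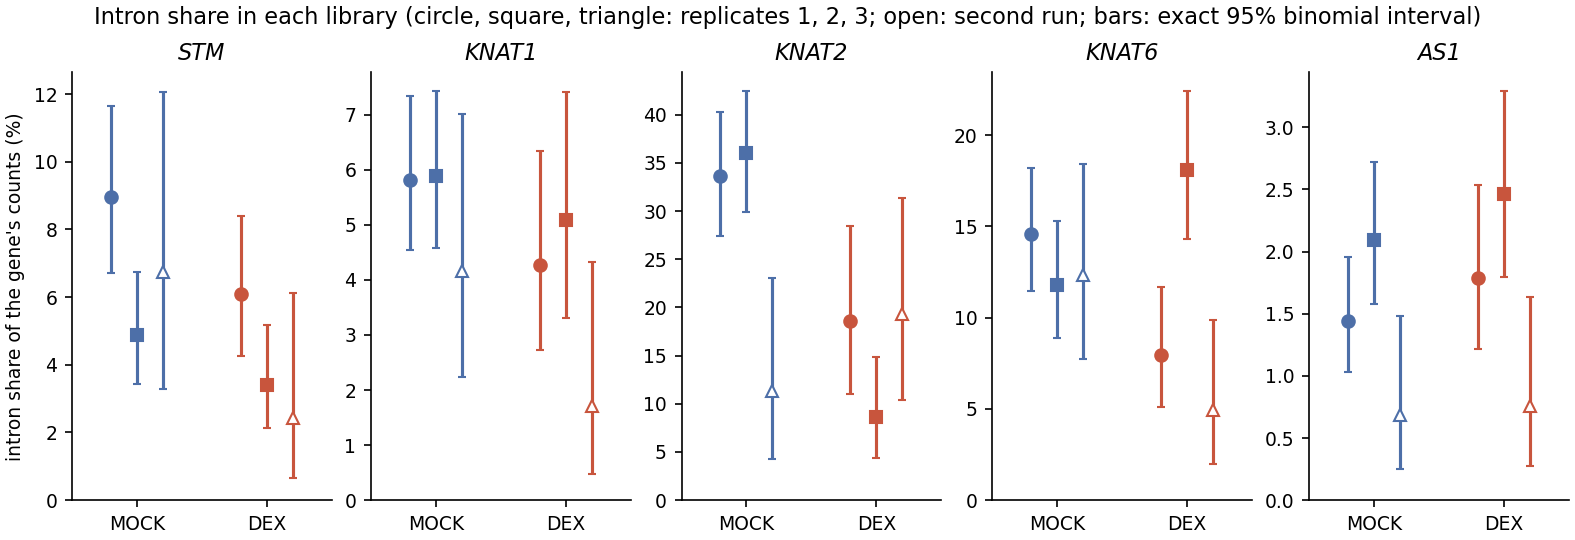
Share of each gene's exon and intron counts that fell in introns, in percent, per library, with exact 95% binomial intervals and open triangles for the second run. The intervals take each count as independent. KNAT2 reaches 33.6% and 36.0% in the first-run MOCK libraries and lies between 8.59% and 19.4% in the other 4.

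Levels per length were compared between the genes as RPKM, which divides CPM by the deposited exon length in kilobases. With MOCK, AS1 was highest at 17.1 ± 2.42 RPKM (SD, n = 3), followed by KNAT1 at 6.33 ± 1.36, STM at 3.97 ± 1.31, KNAT6 at 3.48 ± 0.26, AS2 at 1.63 ± 0.10, KNAT2 at 1.01 ± 0.15 and KNATM at 0.44 ± 0.13. The libraries of KNAT1 and STM overlapped, as did those of STM and KNAT6, and the other neighbours did not. With DEX, STM at 4.43 ± 1.43 RPKM stood above KNAT1 at 3.74 ± 0.55, and AS2 at 0.81 ± 0.18 beside KNAT2 at 0.81 ± 0.15, and the libraries of both pairs overlapped. AS1 was at 13.7 ± 1.5, KNAT6 at 3.12 ± 0.23 and KNATM at 0.31 ± 0.17 RPKM. RNA of whole samples does not tell fewer expressing cells from less RNA per cell.

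The profiles nearest to each gene were sought among 19434 genes whose mean reached 1 CPM, by the root mean square difference of log2 CPM over the 6 libraries, with each gene centred on its own mean. For KNAT1 they were AT3G11110, annotated as a RING/U-box protein (difference 0.05), and AT5G63410, a leucine-rich repeat kinase (0.11). AT3G11110 went from 9.24, 8.43 and 6.31 CPM with MOCK to 5.46, 4.59 and 4.56 CPM with DEX. For AS2 they were AT1G72180, a leucine-rich receptor-like kinase (0.12), and AT2G16990, a major facilitator protein (0.12). AT1G72180 was at 58.3, 68.1 and 70.1 CPM with MOCK and 39.4, 28.6 and 29.4 CPM with DEX.
Nearest to KNAT6 were the jasmonate receptor gene COI1 (0.02) and AT5G10200 (0.03), and nearest to AS1 were AT1G19490, annotated as a bZIP factor (0.05), and AT5G28150 (0.05). For STM they were AT5G55580 (0.05) and AT5G02710 (0.05), for KNAT2 HSA32 (0.06) and the phosphoglycerate kinase gene PGK (0.07), and for KNATM ACI1 (0.08) and AT1G73700 (0.09). KNATM itself had a mean of 0.32 CPM, under the limit of 1 CPM, and its profile rests on 4 to 37 exon counts a library. Among the 7 genes themselves the nearest pair was KNAT6 and AS1 (0.11), and the farthest was STM and AS2 (0.69). KNAT1 and AS2 differed by 0.29.

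Genes that act with the KNOX and AS proteins were described from lists. Of 13 other reported repressors and cofactors of class I KNOX genes, among them Polycomb, BOP and YABBY genes, all 13 were tested and 0 passed (edgeR, beside 4.67% of all genes), with a median log2 fold change of 0.12. Of 13 genes for BEL-like homeodomain proteins, which pair with KNOX proteins, 11 were tested, 1 rose (beside 1.09% of all genes) and 10 did not pass, with a median of −0.15. The gene that rose was BLH2, which limits leaf serration. It was at 29.0, 30.0 and 23.0 CPM with MOCK and 43.4, 36.3 and 40.0 CPM with DEX, and its log2 fold change was 0.55 ± 0.11 (adjusted p = 0.0333, and 0.0685 with the replicate block). The call was lost without DEX replicate 1 (0.0627) or 3 (0.125) and without MOCK replicate 1 (0.0972), 2 (0.107) or 3 (0.132).

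Reported outputs of class I KNOX proteins, such as gibberellin and cytokinin enzymes and lignin genes, included 10 tested of 12, and 0 passed (median −0.52). Of 7 reported outputs of AS1 and AS2 outside the KNOX family 0 passed (median −0.22). Counts of 0 here come from the fit in which 4.67% of all genes passed, and 19% had an unadjusted p under 0.05. Of 8 meristem and boundary markers 5 were tested. All 5 had a negative log2 fold change (median −0.58), while over all genes tested either sign was about as common (median 0.00). Of the 5 markers, 1 passed, the boundary gene CUC3, beside 3.58% of all genes lower with DEX. CUC3 fell from 1.11, 0.79 and 0.064 CPM with MOCK to 0.17, 0.18 and 0 CPM with DEX (log2 fold change −2.48 ± 0.53, adjusted p = 0.0399, and 0.0819 with the replicate block). The call of CUC3 was lost whichever library was left out, at an adjusted p from 0.0645 (without MOCK replicate 3) to 0.239 (without MOCK replicate 1).

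**Figure D4:**
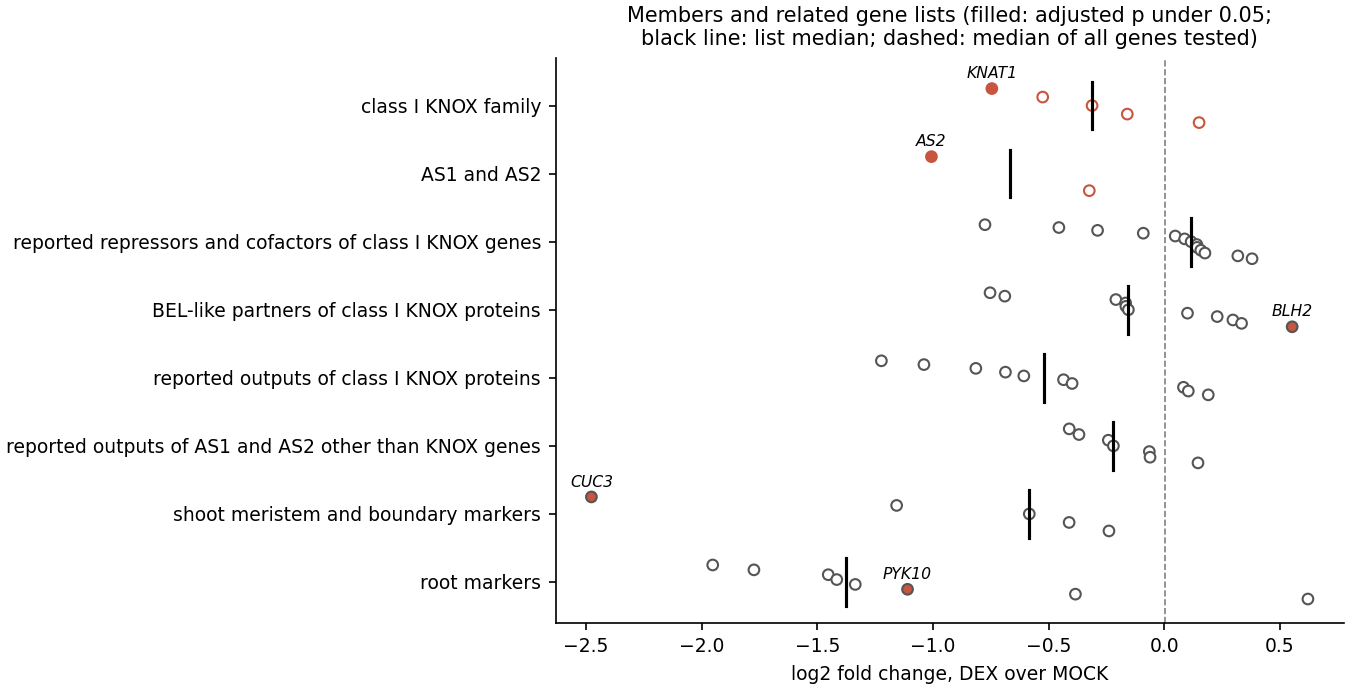
Log2 fold change, DEX over MOCK, of each tested gene in the lists, with filled points for an adjusted p under 0.05, black lines for list medians and a dashed line for the median of all genes tested. KNAT1, AS2, CUC3 and PYK10 are the filled points below 0 and BLH2 is the one above it.

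The makeup of the samples bears on these levels. The meristem genes CLV3 and WUS were at or near the floor, CLV3 with 0 counts in all 6 libraries (which allows up to 0.0393 to 0.0966 CPM) and WUS with 2 counts in DEX replicate 1, 4 in MOCK replicate 1 and 0 in the other 4 libraries (at most 0.055 CPM). Of the 8 meristem and boundary markers 5 stayed under 1 CPM in all first-run libraries. The 8 together summed to 49.1, 57.2 and 78.2 CPM in MOCK replicates 1, 2 and 3 and to 59.8, 40.5 and 48.2 CPM in the DEX replicates. DEX replicate 1 was thus above both first-run MOCK libraries, and 4 of the 8 were lower in DEX replicate 3 than in MOCK replicate 3. Of 15 root markers 13 stayed under 1 CPM in all first-run libraries. Leaving out PYK10, an abundant root and seedling glucosidase, their summed level was 4.66 to 7.44 CPM in the first run, 146 CPM in MOCK replicate 3 and 62.6 CPM in DEX replicate 3, with 14 of the 15 lower in the latter. Of the 15 root markers 8 were tested. A negative log2 fold change was found for 7 of these (median −1.38, beside 0.00 over all genes tested). Only 1 passed, PYK10, beside 3.58% of all genes lower with DEX. PYK10 itself fell (log2 fold change −1.11 ± 0.17, adjusted p = 0.0118), a call lost without DEX replicate 2 (0.0699) or 3 (0.0600) or MOCK replicate 2 (0.0657). The part of root RNA in the second-run ratios of the 7 genes was not tested. PYK10 was lower with DEX in the first run too, at 365 and 301.3 CPM against 556 and 716 CPM with MOCK (log2 fold change −0.92 ± 0.17 in that run alone, adjusted p = 0.0380), and its part in the first-run values was not tested either. In the first run alone KNAT1 had an adjusted p of 0.0321 and AS2 of 0.119. The 5 green tissue markers did not pass, and their summed level ranged from 15530 to 19678 CPM. All 5 were lower in DEX replicate 3 than in MOCK replicate 3 (summed level 15530 against 16728 CPM). Counts of TCP5, in which transgene and native transcripts cannot be told apart, were at 233 to 323 CPM in the first run and at 964 and 1177 CPM in the second. Its DEX to MOCK log2 ratio was −0.31 ± 0.10 (adjusted p = 0.152), and the levels do not check the treatment, which acts on the protein. Depth ranged from 33428836 to 76859163 exon counts a library.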

How the data were processed

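Each library's deposited table gave raw counts per gene, split into exon, intron and total counts, with a gene length in bases, per the file headers. Reads were aligned with STAR and DESeq2 was named too, per the submitters' processing notes; which counter, genome build and gene annotation served is not given in the sources used here. Plants grew at 22 °C with 14 h of light and 10 h of dark, and libraries were made with the TruSeq v2 kit, per the labels' protocols; this kit keeps no strand information. The deposited length equalled the longest RefSeq TAIR10.1 transcript for 7 of the 7 genes and for 99.5% of 37884 loci with exons, so RefSeq gene models, symbols and sequence were used.

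Exon and intron counts were fitted separately in R 4.3.3 by edgeR 4.0.16 (TMM, filterByExpr with a minimum count of 10 and total of 15, robust quasi-likelihood F-test), with run and treatment as terms over all 6 libraries, and Benjamini-Hochberg adjustment over all genes tested at 0.05. A treatment by run term tested the difference between runs. Log2 ratios by run used a prior count of 2. Alternatives used DESeq2 1.42.0, limma-voom 3.58.1, a replicate block, a fit lacking the run term, first-run libraries only, different scalings and filters, summed or halved counts and each library left out. The edgeR tests of exon counts, of intron counts and of the run difference in exon counts were checked on simulated data. Deviations from the group mean correlated between same-numbered DEX and MOCK libraries (r 0.63, 0.61 and 0.88 across genes). The runs enter this measure too, so it cannot tell pairing by number from a shared run. The reported fit held the run and did not pair the numbers. The replicate block, which pairs them, is an alternative and is given beside calls that it changes. No libraries were duplicates (lowest chi-square per degree of freedom 28.5 over 15 pairs). The 7 genes, the lists and the rule for named genes (all 7, the genes of a list that passed, and the 2 nearest profiles) were chosen with earlier results of these data known.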

Additional observations from a re-analysis of the deposited data

Results flagged for a closer look

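The intron counts of KNAT2 moved in opposite directions in the 2 sequencing runs. Both first-run DEX libraries (16 and 11 counts) lay below both MOCK libraries (75 and 85), whereas in the second run the DEX library (12) lay above the MOCK library (6). The difference of the DEX effect between runs, second minus first, was 3.13 ± 0.84 on the log2 scale (edgeR unadjusted p = 0.00269, adjusted p = 0.513 over 12989 genes). It did not pass over all genes, of which 0 did. An unadjusted p under 0.05 in this edgeR test was found for 1109 of the 12989 genes. KNAT2 was flagged because its runs moved in opposite directions, so the unadjusted p was not independent of that choice. The second run had 1 library a group and fewer counts. Root markers and depth differed between the runs too, and their part in this was not tested.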

How the results depend on the processing

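No alternative turned the sign of an exon fold change of the 7 genes (118 values over 17 alternatives), and scalings moved the median of all genes by no more than 0.02. KNAT1 kept its call in 13 of 17 alternatives and AS2 in 9 of 17. The 17 are not separate checks. The first run alone and the fits without a second-run library rest on the same contrast, and others only rescale or refilter the same libraries. With 2 of the 7 genes called as reported, 1 was called with the replicate block and in the first run alone, 0 without a run term, and 0 to 2 with 1 library left out. Over all genes, 1024 calls became 571 with the replicate block, 2065 with DESeq2, 0 without a run term (edgeR; 798 at an unadjusted p under 0.05, and adjusted p = 0.999 for KNAT1 and AS2), and 279 to 1132 with 1 library left out. For introns, 122 calls became 326 without a filter, where 2 of the 7 genes passed (KNAT1, adjusted p = 0.0496, and KNAT2, 0.0086), and 40 to 106 with 1 library left out, where 0 or 1 of the 7 passed. The block changed no intron call of the 7. The intron fold change of AS1 turned positive without DEX replicate 1 (0.056) and without MOCK replicate 2 (0.073), and ranged from −0.24 to 0.073 with 1 library left out. The causes were not tested. Leave-one-out and block fits of the intron counts, and all alternatives for BLH2 (called in 9 of 17), CUC3 (7 of 15) and PYK10 (13 of 17), were chosen after seeing the data. Without a second-run library, its partner no longer informs the contrast. Between 16.6% and 25.8% of exon counts from 1 to 20 were odd, as when both mates of a pair are counted, which was not tested; with halved counts KNAT1 and AS2 kept their calls (adjusted p = 0.0189 and 0.0378).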
